A study of Mus musculus with 5 samples.

Results

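Bone marrow cells with *Csf1r* were divided by 4 genes, and 414 of 29679 cells carried them at a high level. These cells were chosen by their raw unique molecular identifiers (UMIs), each UMI standing for a single captured mRNA molecule. A barcode with at least 500 UMIs, of which at most 10% were mitochondrial, was taken when it held at least 1 UMI of *Csf1r* and at least 5 UMIs of *Cd14*, *Cd83*, *Thbs1* and *Nr4a2* together. Cells with any UMI of *Ace*, *Treml4* or *Siglech*, or with 2 or more UMIs of *Cd79a* or of *Mki67* and *Top2a* together, were excluded. The 414 cells are called Cd14/Cd83/Thbs1 monocytes here. The 2178 cells that passed the same conditions with 0 to 4 UMIs of the 4 genes are called comparison monocytes. Together they were 2592 *Csf1r* cells. Both names are labels for cells chosen by the rule, and the comparison monocytes were mixed. In 776 of these 2178 (35.6%), more than 10% of UMIs came from neutrophil genes. No UMI of *Ly6c2* or *Ccr2* was held by 199 of them (9.14%).

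The 5 libraries came from the bone marrow of 5 C57BL/6J mice, 8 weeks old and not irradiated. Each had received 1000 BCR-ABL1 pre-B acute lymphoblastic leukemia cells through the tail vein. The day 0 animal was euthanized straight after the injection and the other 4 at days 3, 6, 9 and 12, so every library, day 0 included, is from a transplanted mouse. Flushed marrow and collagenase-digested crushed bone were pooled, red cells were lysed, and the cells were frozen before droplet-based 3' sequencing (10x Genomics, v2). With 1 mouse per day, no test between days was possible, and every interval given for a day covers counting error only. In contrast, the Cd14/Cd83/Thbs1 monocytes could be tested against comparison monocytes, because both were found in all 5 mice.

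CSF1R is the receptor for the growth factor that maintains monocytes and macrophages. CD14 is a surface co-receptor that hands bacterial lipopolysaccharide to Toll-like receptor 4, whose signal releases NF-kB from its inhibitors. NF-kB then induces cytokines together with its own inhibitors, which end the response. CD83 appears on stimulated antigen-presenting cells, THBS1 (thrombospondin-1) is a secreted matrix protein that platelets and monocytes release, and NR4A2 is an immediate-early orphan nuclear receptor.

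The libraries held 33425695 to 43554233 UMIs and 4870 to 6944 cells. From day 0 to day 12 there were 137, 72, 93, 60 and 52 Cd14/Cd83/Thbs1 monocytes with a median of 5758, 6970, 7022, 5493 and 5087 UMIs. No barcode of these cells was shared between libraries. In 63 of the 414 cells more than 10% of UMIs came from 8 neutrophil granule and S100 genes, and these numbered 10, 15, 15, 9 and 14 in the order of the days. The others formed a separate group, as their median share of such UMIs was 1.36 to 1.87% and only 5 of the 414 cells lay between 5 and 15%. Of the 2178 comparison monocytes, 776 (35.6%) were also over this limit, so part of the cells in the denominator of every share carried neutrophil transcripts. In the depth-matched comparison cells the percentage was 16.1, 23.6, 19.4, 20 and 34.6. Several results are also given without such cells in either population.

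The 4 genes were unequal within the sum. *Cd14* provided 40.7% of their UMIs and *Thbs1* 38.6%, while *Nr4a2* provided 10.6% and *Cd83* 10.1%. A UMI of *Cd14* was found in 374 of the 414 cells, of *Thbs1* in 365, of *Nr4a2* in 272 and of *Cd83* in 233. All 4 genes were detected in 153 cells, 3 in 144, 2 in 83 and a single gene in 34. Of the cells with a single gene, 20 held *Thbs1* alone and 14 *Cd14* alone, and none rested on *Cd83* or *Nr4a2* alone. The median sum was 16, 16, 19, 14 and 13 UMIs from day 0 to day 12, and the highest was 94. Just inside the threshold, 30 cells had a sum of 5, and just outside it 51 had a sum of 4. Of the comparison monocytes, 1384 had a sum of 0. A sum of 1 was found in 459 comparison monocytes. The numbers thus fell across the threshold with no gap at it. A sum of 20 or more was found in 149 of the 414 cells. These values describe the choice and were not tested.

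The levels of these genes, in UMIs per 1000000 UMIs of the summed cells (CPM), differed by less than 2-fold across the mice. *Thbs1* was at 989, 1105, 1142, 1040 and 1008 CPM from day 0 to day 12 and *Cd14* at 1343, 1063, 1023, 760 and 1159 CPM. *Nr4a2* was at 256, 336, 300.0, 358 and 219 CPM and *Cd83* at 245, 281, 316, 336 and 202 CPM. *Cd14* was highest at day 0 and lowest at day 9, whereas *Cd83* and *Nr4a2* were highest at day 9. *Csf1r* itself was alike in both populations, at 227 to 284 CPM in Cd14/Cd83/Thbs1 monocytes and 214 to 260 CPM in comparison monocytes. Of the 414 cells, 242 met the *Csf1r* condition with exactly 1 UMI and 172 held 2 or more.

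The monocyte identity of the cells was checked with genes outside the rule. *Ccr2*, the chemokine receptor by which classical monocytes leave the marrow, had a UMI in 67.3 to 83.3% of Cd14/Cd83/Thbs1 monocytes over the 5 libraries. In T cells, which gave the background of free RNA, the share was 7.24 to 14.7%. *Fn1* (fibronectin) was found in 69.2 to 83.3% against 3.71 to 10.0% of T cells. The T cells were shallower, with a median of 2360 to 3429 UMIs. After every cell was thinned to 2000 UMIs, which left out 6 Cd14/Cd83/Thbs1 monocytes, the shares were 43.1 to 62.7% against 4.71 to 10.2% for *Ccr2* and 50 to 67.4% against 2.35 to 5.63% for *Fn1*. *Ly6c2* did not separate the cell types, since a UMI of it was also found in 62.5 to 83.1% of T cells. The monocyte part of the label held for *Ccr2* and *Fn1*, both chosen as markers with earlier results known. In all comparison monocytes, not matched in depth, *Ccr2* was found in 58.2 to 64.7% and *Fn1* in 53.0 to 57.3%. At 2000 UMIs these shares were 50.3 to 56.1% for *Ccr2* and 44.6 to 50.7% for *Fn1*. The thinned *Ccr2* range thus lay inside that of Cd14/Cd83/Thbs1 monocytes, and the raw shares do not show a higher *Ccr2* in them.

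Markers of other cell types were present to different degrees. The 18 neutrophil genes summed to 46273 to 120939 CPM in Cd14/Cd83/Thbs1 monocytes, 84467 to 156227 CPM in comparison monocytes and 198590 to 289135 CPM in empty droplets, and none of the 18 was at 0. Without the cells rich in these transcripts, the sums were 14244 to 19316 and 14849 to 21765 CPM. Of 16 macrophage genes, *Mertk*, *Cd5l* and *Siglec1* were at 0 in all 414 cells, and 4 cells held 5 or more UMIs of the C1q genes. The macrophage sum was mostly *Apoe* and was 1559, 959, 1622, 1101 and 891 CPM, above the 1054, 580, 1054, 1025 and 535 CPM of comparison monocytes in each library and above the 194 to 456 CPM of empty droplets. Of 16 conventional dendritic genes, *Xcr1* and *Fscn1* were at 0, and the sum was 269 to 473 CPM against 216 to 402 CPM in comparison monocytes. The 10 B cell genes summed to 117 to 311 CPM and the 10 plasmacytoid dendritic genes to 257 to 340 CPM. The 8 basophil genes summed to 41.3 to 141 CPM, with *Fcer1a*, *Cpa3* and *Ms4a2* at 0, and the 10 progenitor genes to 346 to 1291 CPM. The 13 T and NK genes summed to 82.3 to 161 CPM against 5977 to 7950 CPM in T cells, and none of the 13 was at 0. Of the 8 erythroid genes *Car1* and *Alas2* were at 0, and the list summed to at most 40.7 CPM in 4 libraries but to 2706 CPM at day 9, which fell to 94.8 CPM without the neutrophil-rich cells.

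Cd14/Cd83/Thbs1 monocytes were most frequent in the day 0 mouse. They made up 26.3% of *Csf1r* cells there (95% Clopper-Pearson interval 22.6 to 30.3%, 137 of 521). The share was 14.5% (11.5 to 17.9%) at day 3, 16.0% (13.1 to 19.2%) at day 6, 10.8% (8.34 to 13.7%) at day 9 and 11.9% (9.02 to 15.3%) at day 12. The interval of day 0 did not overlap any of the others, while those of the 4 later days all overlapped each other. The day 0 share was 1.65 times the highest later share, that of day 6 (95% Katz interval 1.30 to 2.08). All these intervals take cells as the units and cover counting error only. With 1 mouse per day they hold no spread between mice and do not test a difference between days. Of all cells in a library, Cd14/Cd83/Thbs1 monocytes were 2.19, 1.48, 1.54, 0.864 and 0.934%. The day 0 share stayed the highest without the neutrophil-rich cells, at 32.0% against 13.6 to 20.5%. Free RNA of the 5 label markers *Cd14*, *Cd83*, *Nr4a2*, *Thbs1* and *Tnip3* was at 402, 281, 337, 207 and 379 CPM in empty droplets, highest at day 0, and its part in the share was not tested. The plot of shares shows both sets of values.

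**Figure D1:**
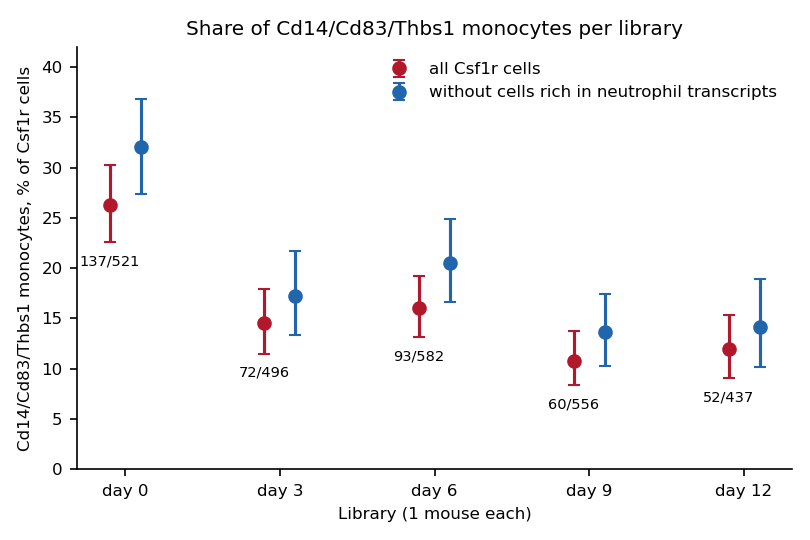
Share of *Csf1r* cells that were Cd14/Cd83/Thbs1 monocytes, in percent (vertical axis), in each library (horizontal axis, 1 mouse per day). Red points include all cells, with the number of cells below each, and blue points leave out cells with over 10% neutrophil transcripts. Bars are 95% Clopper-Pearson intervals, which cover counting error only. Day 0, at 26.3%, lies above the other 4 libraries, which lie between 10.8 and 16.0%.

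To find what else set these cells apart, each library's Cd14/Cd83/Thbs1 monocytes were summed and set against the same number of comparison monocytes matched in UMIs, with the mouse as a block (edgeR quasi-likelihood test, Benjamini-Hochberg adjusted p below 0.05). Apart from the rule genes, 576 of 4522 genes (12.7%) were higher and 447 (9.89%) were lower. The median log2 fold change over all genes was -0.03. Because the cells were split by 4 genes, a call says that a gene varied together with those 4 within each mouse. It says nothing of the conditions of the mice, and the 5 samples per population come from the same 5 animals.

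*Tnip3*, a label marker that the rule did not use, encodes an inhibitor of NF-kB signaling that binds A20. It was at 112, 158, 115, 86.0 and 65.1 CPM from day 0 to day 12, against 0, 9.66, 4.36, 22.2 and 6.85 CPM in comparison monocytes. The groups did not overlap, and the log2 fold change was 4.03 ± 0.37 (SE, n = 5 libraries, edgeR adjusted p = 3.5e-07). *Tnip3* was sparse in single cells. A UMI was found in 19.2 to 32.3% of Cd14/Cd83/Thbs1 monocytes, in 1.30 to 3.83% of comparison monocytes and in 0.282 to 0.669% of T cells. At 2000 UMIs per cell the shares were 11.8 to 16.3%, 0.315 to 1.6% and 0 to 0.588%.

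The largest increases among well-counted genes were led by *Id3*, which encodes an inhibitor of helix-loop-helix transcription factors. *Id3* (chr4:136143497-136145755 in GENCODE vM21, plus strand) was at 325, 755, 576, 677 and 315 CPM, against 24.6, 13.5, 17.4, 13.9 and 6.85 CPM in comparison monocytes (log2 fold change 4.87 ± 0.20, edgeR adjusted p = 2.7e-11). Every library was far above the comparison, though days 0 and 12 were at about the same level and below the other 3. *Il1b* (chr2:129364570-129371139, minus strand), the cytokine interleukin-1 beta, was at 719, 940, 1062, 1012 and 771 CPM against 36.9, 54.1, 33.4, 85.9 and 130 CPM (3.92 ± 0.20, edgeR adjusted p = 2.92e-10). *Il1b* was even further apart without the neutrophil-rich cells, at a log2 fold change of 5.17. *Crem*, a cAMP-responsive transcription factor, was at 99.3, 198, 204, 136 and 92.5 CPM against 17.9, 3.86, 11.6, 5.54 and 0 CPM (3.85 ± 0.30, edgeR adjusted p = 4.03e-08). The other 11 of the 15 largest increases, beside *Tnip3*, ranged from a log2 fold change of 3.70 to 2.99. They were *Bcl2a1d* and *Bcl2a1b*, survival factors of the BCL2 family, *Clec4n* (dectin-2), *Avpi1*, *Ier3*, *Got1*, the transcription factor *Ets2*, the prostaglandin synthase *Ptgs2*, the mitochondrial arginase *Arg2*, the chemerin-binding receptor *Ccrl2* and the chemokine *Cxcl2*. *Bcl2a1b* and *Bcl2a1d* are nearly identical copies, so the division of reads between them is uncertain. All 15 genes were without overlap between the populations. They were chosen as the largest increases with the same direction in 5 libraries, which favors a lack of overlap. The share of all tested genes without overlap is not given here.

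The 10 largest decreases were smaller, from a log2 fold change of -1.85 to -1.27. *Tifab*, an inhibitor of TRAF6 signaling, was at 35.7, 28.8, 33.5, 27.7 and 17.1 CPM against 98.5, 122, 124, 116 and 85.7 CPM (log2 fold change -1.85 ± 0.16, edgeR adjusted p = 2.2e-07). *Fam111a*, which encodes a protease linked to DNA replication, was at 63.4 to 82.9 CPM against 219 to 257 CPM (-1.64 ± 0.11, edgeR adjusted p = 6.54e-09). *Txnip*, the inhibitor of thioredoxin, was at 76.9 to 97.5 CPM against 217 to 290 CPM (-1.44 ± 0.12, edgeR adjusted p = 6.26e-08). The others were the adaptor *Sla*, the cytokine *Il16*, *Clec2i*, *Bmyc*, *Fam69a*, *Gm26740* and *9930111J21Rik2*. In each of the 10 genes all libraries of Cd14/Cd83/Thbs1 monocytes lay below all libraries of comparison monocytes, which their choice as the largest decreases also favors.

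**Figure D2:**
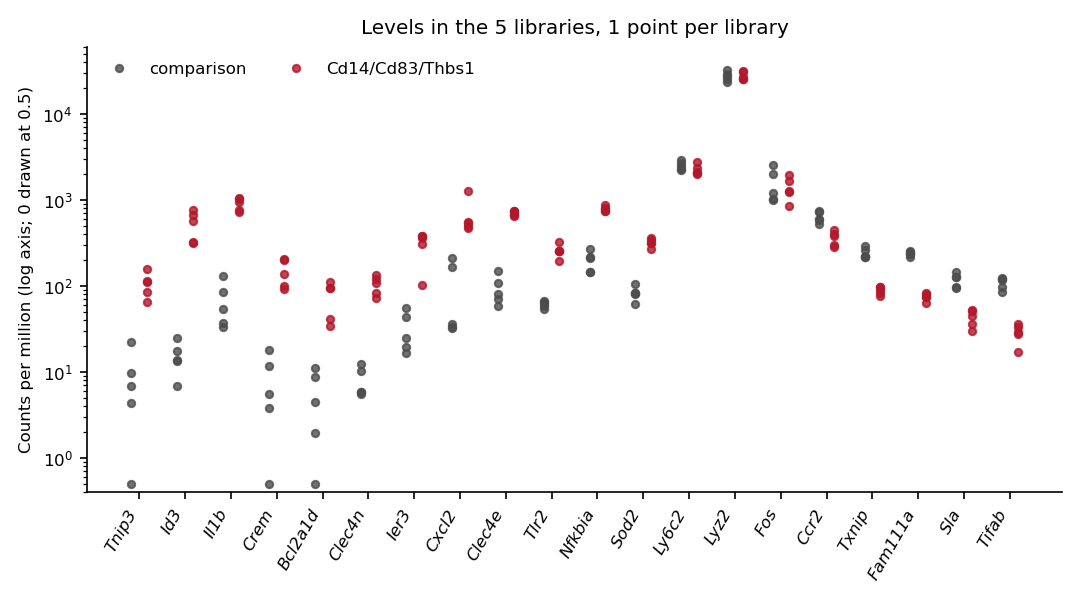
Levels of 20 genes in CPM (vertical log axis, 0 drawn at 0.5), with a point for each of the 5 libraries, in Cd14/Cd83/Thbs1 monocytes (red) and depth-matched comparison monocytes (gray). The groups do not overlap from *Tnip3* to *Sod2*, overlap for *Ly6c2*, *Lyz2* and *Fos*, and do not overlap in the other direction from *Ccr2* to *Tifab*. Many of these genes were chosen as the largest increases or decreases, which favors a lack of overlap.

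Genes of NF-kB signaling were the most uniformly raised list. Of 25 tested NF-kB factors and feedback genes, 24 were higher and none was lower, with a median log2 fold change of 1.77 against -0.03 over all genes. The shares over all genes were 12.7% higher and 9.89% lower. The exception was the subunit *Nfkb1*, with a log2 fold change of 0.27 (edgeR adjusted p = 0.164). *Nfkbia*, the inhibitor IkB-alpha that NF-kB induces against itself, was at 802, 884, 749, 787 and 744 CPM against 270, 147, 209, 144 and 216 CPM (2.0 ± 0.13, edgeR adjusted p = 3.82e-09). *Sod2*, the mitochondrial superoxide dismutase, was at 271 to 363 CPM against 61.0 to 106 CPM (edgeR adjusted p = 1.46e-09). *Ier3* was at 383, 361, 386, 305 and 103 CPM against 43.6, 19.3, 24.7, 16.6 and 54.8 CPM, and day 12 was its lowest library. *Tnfaip2* was at 178 to 330 CPM against 71.6 to 111 CPM. Among the subunits, *Rel* had a log2 fold change of 1.77, *Relb* of 2.17, *Nfkb2* of 1.15 and *Rela* of 0.71. *Tnfaip3*, which encodes the ubiquitin-editing enzyme A20, had 2.58. These subunits and *Tnfaip3* were singled out after their values were seen. Without the neutrophil-rich cells, 23 of 24 tested genes of the list were higher. Over all genes in that setting, 581 of 4079 were higher and 457 lower.

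The sequences before 4 of these genes are shown because each holds the NF-kB consensus, a motif of 10 bases, and because the genes are the label marker *Tnip3*, the chemokine *Cxcl2*, the inhibitor *Nfkbia* and *Ier3*, a gene of the early response that was among the largest increases. They were chosen for having a match. They are the 250 bases before the RefSeq start (GRCm38.p6), 5′ to 3′ on the strand of the gene, with motif matches in capitals. *Tnip3* lies on the plus strand at chr6:65590148-65590397, *Cxcl2* on the plus strand at chr5:90903649-90903898, *Nfkbia* on the minus strand at chr12:55492648-55492897 and *Ier3* on the plus strand at chr17:35821463-35821712. In the GENCODE vM21 annotation none of the bases of *Tnip3* and *Nfkbia* is exonic, while 28 of *Cxcl2* and 29 of *Ier3* fall in an annotated exon.
Tnip3: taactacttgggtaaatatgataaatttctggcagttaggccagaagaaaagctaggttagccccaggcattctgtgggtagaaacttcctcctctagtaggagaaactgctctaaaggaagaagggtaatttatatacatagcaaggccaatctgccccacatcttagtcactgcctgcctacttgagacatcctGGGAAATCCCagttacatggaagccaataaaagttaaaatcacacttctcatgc
Cxcl2: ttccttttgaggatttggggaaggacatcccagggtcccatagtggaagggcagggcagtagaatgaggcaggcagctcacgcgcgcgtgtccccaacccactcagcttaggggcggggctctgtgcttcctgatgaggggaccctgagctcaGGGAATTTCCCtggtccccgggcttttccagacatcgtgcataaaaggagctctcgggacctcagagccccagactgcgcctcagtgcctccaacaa
Nfkbia: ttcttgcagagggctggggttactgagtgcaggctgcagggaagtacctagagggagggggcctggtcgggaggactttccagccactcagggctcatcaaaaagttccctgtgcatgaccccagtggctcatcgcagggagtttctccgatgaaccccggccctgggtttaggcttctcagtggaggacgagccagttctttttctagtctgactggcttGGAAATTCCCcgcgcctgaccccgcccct
Ier3: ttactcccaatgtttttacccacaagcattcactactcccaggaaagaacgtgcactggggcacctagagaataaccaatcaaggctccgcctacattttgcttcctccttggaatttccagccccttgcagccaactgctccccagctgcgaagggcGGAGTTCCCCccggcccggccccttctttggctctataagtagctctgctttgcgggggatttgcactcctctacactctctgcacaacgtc
The match began 54 bases before the start of *Tnip3*, 97 before that of *Cxcl2*, where a second match overlapped the first by all but 1 base, 29 before that of *Nfkbia* and 92 before that of *Ier3*. Both strands were searched. Over all 32841 RefSeq promoters, 7.25% held the NF-kB consensus within 250 bases, 6.75% the AP-1 motif TGANTCA and 1.55% the cAMP-response element TGACGTCA. Among promoters of genes higher in Cd14/Cd83/Thbs1 monocytes, of which 447 of 576 genes were matched, the NF-kB consensus was in 71 of 594 (12.0%). It was in 8.31% for genes that were lower and 8.51% for genes that were not called. Within the NF-kB list it was in 13 of 27 promoters, and that list was written from genes known as NF-kB targets. AP-1 and the cAMP-response element were in 5.72% and 2.86% of the promoters of higher genes, against 4.13% and 3.00% for genes not called. No test was made on these shares.

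Cytokine and chemokine genes were mostly higher. Of 16 tested, 10 were higher and 2 lower, against 12.7% and 9.89% over all genes, with a median log2 fold change of 1.36. *Cxcl2*, a neutrophil-attracting chemokine, was at 1265, 500, 477, 538 and 555 CPM against 164, 32.8, 36.3, 33.3 and 212 CPM (2.99 ± 0.24, edgeR adjusted p = 6.22e-08). *Ptgs2* was at 65.8, 123, 62.6, 119 and 78.8 CPM against 8.95, 9.66, 13.1, 0 and 6.85 CPM. *Osm* (1.86), *Tnf* (1.37), *Ccl3* (1.28) and *Vegfa* (3.26), given as log2 fold changes and chosen after their values were seen, were also called higher. On the other hand, *Ccl6* was slightly lower (-0.21 ± 0.05, edgeR adjusted p = 0.00991) and *Ccl9* was at 655 to 1046 CPM against 724 to 1084 CPM (-0.06, edgeR adjusted p = 0.555). *Ccl5*, a chemokine of T and NK cells, was lower, and neither *Ccl5* nor *Ccl6* was called without the neutrophil-rich cells. *Il12b*, *Il23a* and *Ccl12* were at 0 in all 414 cells. The interleukin-6 gene *Il6*, with too few counts to be tested and chosen after its values were seen, had 5, 8, 12, 20 and 0 UMIs from day 0 to day 12.

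Receptors of innate sensing rose in part. Of 16 tested, 8 were higher and 1 lower (median log2 fold change 0.54), against 12.7% higher and 9.89% lower over all genes. *Clec4e* (mincle), a lectin receptor for mycobacterial glycolipids, was at 739, 642, 749, 704 and 668 CPM against 109, 81.1, 71.2, 58.2 and 151 CPM (2.94 ± 0.14, edgeR adjusted p = 2.06e-10). *Clec4d*, its partner receptor, was at 180 to 275 CPM against 55.4 to 95.9 CPM. *Tlr2*, the receptor of bacterial lipoproteins, was at 193, 254, 256, 327 and 254 CPM against 58.2, 54.1, 61.1, 66.5 and 65.1 CPM (2.03 ± 0.12, edgeR adjusted p = 1.74e-09). *Pycard*, the inflammasome adaptor, was lower (-0.58 ± 0.11, edgeR adjusted p = 0.000856). In single cells, *Clec4e* was found in 78.8 to 88.5% of Cd14/Cd83/Thbs1 monocytes, 26.0 to 44.2% of comparison monocytes and 10.4 to 24.4% of T cells. *Tlr2* was found in 57.7 to 75.3, 22.7 to 26.2 and 1.77 to 4.83%. At 2000 UMIs the shares of *Tlr2* were 25.5 to 40.7, 9.02 to 13.9 and 1.2 to 2.67%.

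Immediate-early genes were divided. Of 26 tested, 14 were higher, 2 lower and 10 not called (median log2 fold change 0.46), against 12.7% higher and 9.89% lower over all genes. With the neutrophil-rich cells left out, 14 were higher and 4 lower. The 2 lower genes were the AP-1 subunit *Jun*, at 599, 402, 314, 408 and 473 CPM against 859, 533, 324, 479 and 651 CPM (-0.35 ± 0.08, edgeR adjusted p = 0.00607), and the GTPase gene *Rhob* (-0.41), both chosen after their values were seen. *Btg1*, an antiproliferative gene, was at 665 to 1203 CPM against 319 to 525 CPM (1.26 ± 0.09, edgeR adjusted p = 1.35e-08). *Junb* was at 823 to 1081 CPM against 371 to 826 CPM (0.76 ± 0.11, edgeR adjusted p = 6.51e-05). *Fos*, the member with the highest level, did not pass and was at 1958, 1226, 854, 1262 and 1659 CPM against 2541, 1005, 1028, 1219 and 2005 CPM (-0.13 ± 0.08, edgeR adjusted p = 0.297). *Dusp1*, the phosphatase of MAP kinases, had a log2 fold change of -0.01. *Nr4a1*, a relative of *Nr4a2*, was at 150, 204, 170, 261 and 189 CPM against 64.9, 30.9, 26.2, 30.5 and 30.8 CPM (2.21 ± 0.21, edgeR adjusted p = 6.32e-07). The third family member, *Nr4a3*, chosen after its values were seen, had a log2 fold change of 4.45. In T cells a UMI of *Fos* was found in 43.0 to 66.1%. Of 10 heat-shock and chaperone genes, 4 were higher and none lower. *Hspa5*, a chaperone of the endoplasmic reticulum, was at 474 to 808 CPM against 185 to 355 CPM, while *Hspa8* and *Hsp90ab1* were not called.

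Thrombospondin receptors, coagulation and matrix genes gave 6 higher and none lower of 12 tested, against 12.7% higher and 9.89% lower over all genes. *Cd44*, the receptor of hyaluronan, was at 428, 404, 402, 519 and 452 CPM against 181, 209, 206, 202 and 223 CPM (1.10 ± 0.09, edgeR adjusted p = 6.22e-08). *F13a1*, *Fn1* and *Tgfbi* were not called. Coagulation factor VII (*F7*), urokinase (*Plau*) and the protease gene *Adamts1* were at 0 in all 414 cells. Without the neutrophil-rich cells the median log2 fold change of the list went from 0.68 to 0.30, with 5 of 11 genes higher. Of 11 costimulation and checkpoint genes, 5 were higher and 2 lower. *Cd86*, a ligand of CD28, was at 78.8 to 140 CPM against 17.4 to 41.1 CPM (2.18 ± 0.21, edgeR adjusted p = 6.36e-07). *Socs3*, the inhibitor of cytokine receptors, was at 72.5 to 135 CPM against 11.6 to 24 CPM. *Marcksl1* was at 284 to 417 CPM against 58.3 to 85.0 CPM. *Vsir*, which encodes the checkpoint protein VISTA, was lower (-0.71 ± 0.10, edgeR adjusted p = 2.97e-05).

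Interferon-stimulated genes were not raised. Of 16 tested, none was higher, 2 were lower and 14 were not called (median log2 fold change -0.26). The shares over all genes were 12.7% higher and 9.89% lower. Without the neutrophil-rich cells 7 of 16 were lower and none higher, against 457 of 4079 lower over all genes. *Bst2* was at 189 to 277 CPM against 227 to 325 CPM, and *Isg15* at 61.7 to 151 CPM against 72.7 to 201 CPM. Of 20 classical monocyte genes, 1 was higher, 5 were lower and 14 were not called (median log2 fold change -0.03), against 9.89% lower over all genes. When cells with markers of other types were left out of both populations, 8 of the 20 were lower. *Lyz2* (lysozyme) was at 25406 to 31800 CPM against 23821 to 32689 CPM (0.01 ± 0.02, edgeR adjusted p = 0.713). *Ly6c2* was lower by little (-0.16 ± 0.05, edgeR adjusted p = 0.0208), while *Ccr2*, named as a marker and outside the rule for named genes, was at 382, 302, 404, 452 and 281 CPM against 604, 587, 740, 721 and 521 CPM (-0.81 ± 0.07, edgeR adjusted p = 2.7e-07). The transcription factor *Irf8*, chosen after its values were seen, had a log2 fold change of -1.24. Of 8 nonclassical monocyte genes, 2 were higher and 1, the fractalkine receptor *Cx3cr1*, was lower (named after its values were seen). Over all genes the shares were 12.7% higher and 9.89% lower. *Apoe*, which carries lipids, was the only 1 of 3 tested macrophage genes called, at 703 to 1405 CPM against 404 to 893 CPM (0.66 ± 0.06, edgeR adjusted p = 4.83e-07). Of 13 cell-cycle genes, 6 were lower and none higher, although the rule left few UMIs of *Mki67* and *Top2a* in either population. The lower genes included *Stmn1*, *Tuba1b* and *Hmgb2*.

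MHC class II genes, which present peptides to helper T cells, differed between libraries. The 10 genes summed to 2975, 5735, 3286, 2279 and 1313 CPM in Cd14/Cd83/Thbs1 monocytes from day 0 to day 12 and to 743, 1468, 2875, 4068 and 2066 CPM in comparison monocytes. They were thus above the comparison at days 0, 3 and 6 and below it at days 9 and 12. The direction of day 6 turned without the neutrophil-rich cells, at 3864 against 3987 CPM. None of 6 tested was called (median log2 fold change 0.71), and *H2-Aa* had 0.97 ± 0.38 (edgeR adjusted p = 0.0784). Without the neutrophil-rich cells *H2-Aa* was called higher (edgeR adjusted p = 0.0112), and 2 genes of the list were higher and 1 lower. When cells with markers of other types were left out of both populations, 4 of the 6 were higher and 1 was lower. Over all genes in that setting, 524 of 3410 were higher and 394 lower. The result for this list thus depended on which cells were kept. At least 10 UMIs of *H2-Aa*, *H2-Ab1* and *H2-Eb1* together were found in 34 of the 414 cells (8.21%) and in 5.51% of all comparison monocytes. These shares were not matched, as the median depth was 6186 against 5416 UMIs. Neutrophil-rich cells were 15.2% against 35.6%. Of 6 progenitor genes, none was called, but 5 were lower without the neutrophil-rich cells. Of the lists for other cells, none of 3 plasmacytoid dendritic, 3 conventional dendritic and 1 basophil genes was called, the 1 B cell gene tested was lower, 1 of 2 T and NK genes (*Ccl5*) was lower, and no erythroid gene had enough counts. Of 18 neutrophil genes, 5 were lower and 1, the decoy receptor *Il1r2*, was higher (named after its values were seen). Over all genes, 9.89% were lower and 12.7% higher. Without the neutrophil-rich cells none of 14 was lower, and *Il1r2* was still higher.

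**Figure D3:**
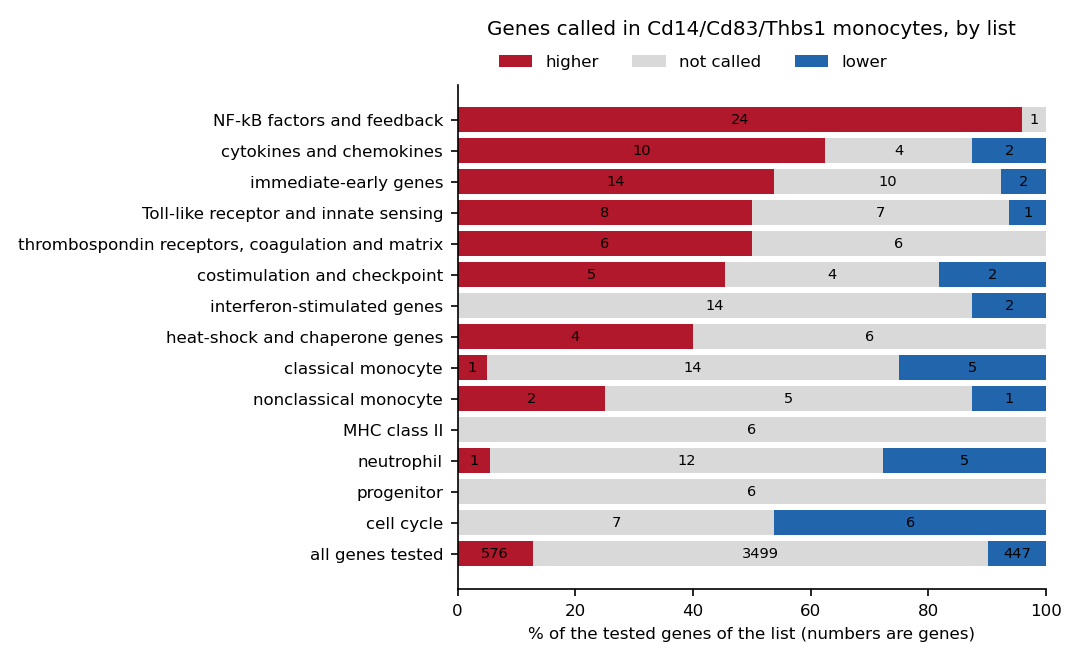
For each list with at least 6 tested genes, and for all genes tested, the percentage of genes (horizontal axis) that were higher (red), not called (gray) or lower (blue) in Cd14/Cd83/Thbs1 monocytes, with the number of genes written in each bar. NF-kB genes were higher in 24 of 25, against 576 of 4522 over all genes, and interferon-stimulated genes were higher in none of 16.

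Within the *Csf1r* cells, levels followed the sum of the 4 genes. Cells without the neutrophil-rich ones were put into bins of that sum, whose median depth lay between 5637 and 6790 UMIs. *Il1b* had a median over the libraries of 45.3 CPM at a sum of 0, 32.3 at 1, 39.9 at 2 to 4, 142 at 5 to 9, 942 at 10 to 19 and 1632 at 20 or more. At 5 to 9 this median was therefore nearer to the lower bins, although at day 9 the level there was already 699 CPM. The bins at 5 to 9, 10 to 19 and 20 or more held 77, 131 and 143 cells. *Clec4e* was at 49.5, 64.7, 79.8, 190, 873 and 909 CPM and *Nfkbia* at 180, 206, 234, 381, 1009 and 1070 CPM over the same bins. These medians levelled off above a sum of 10, whereas that of *Il1b* was higher again at 20 or more, although single libraries varied in the top bins. *Id3* was at 14.3, 22.3, 86.0, 351, 509 and 522 CPM, and at 5 to 9 was nearer to the upper bins. *Ccr2* was at 673, 686, 799, 398, 423 and 410 CPM, a step down at the threshold with no further fall, and *Fam111a* was at 272, 249, 222, 132, 65.6 and 64.5 CPM. The smallest bin of a library held 10 cells. The same cells and depth stand behind all genes, so the shape is a description and was not tested.

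**Figure D4:**
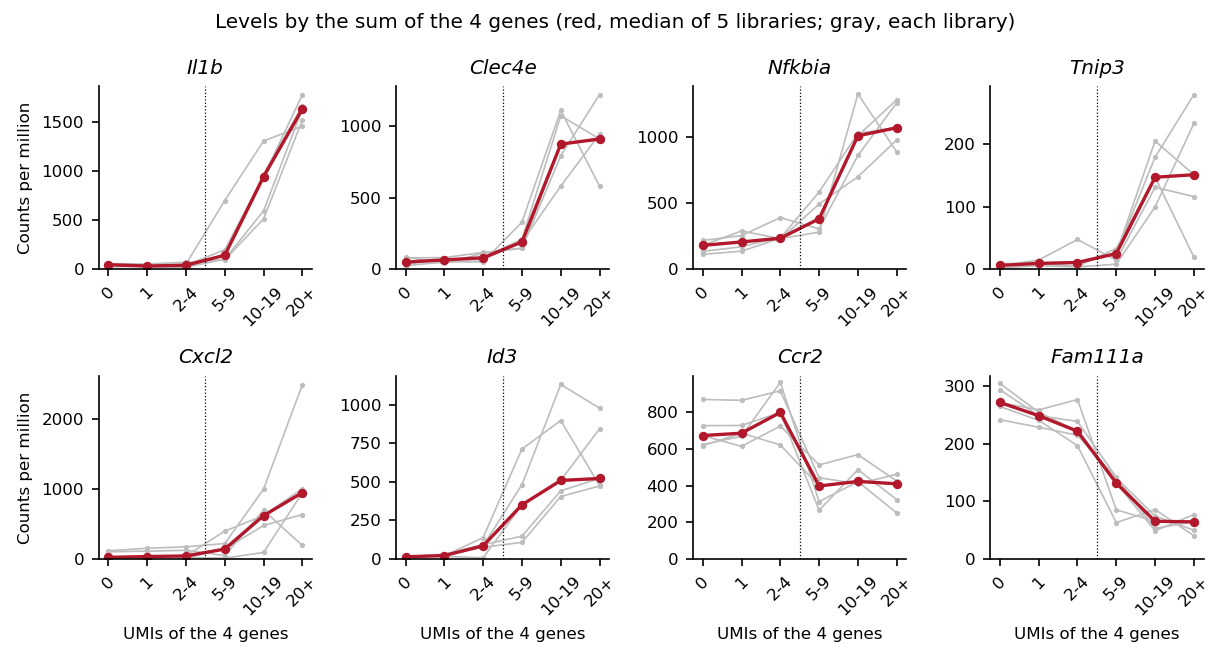
Level in CPM (vertical axes) of 8 genes that the rule did not use, by the UMIs of *Cd14*, *Cd83*, *Thbs1* and *Nr4a2* together (horizontal axis), in *Csf1r* cells without the neutrophil-rich ones. Gray lines are the 5 libraries, red their median, and the dotted line the threshold. *Il1b* goes from 39.9 CPM below the threshold to 1632 CPM in the highest bin, while *Ccr2* goes from 799 to 410 CPM.

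Nonclassical monocytes, with at least 2 UMIs of *Ace* and *Treml4*, were compared as another monocyte population and numbered 11, 25, 33, 26 and 7 cells. The NF-kB list summed to 2354 to 3168 CPM, against 2924 to 4048 CPM in Cd14/Cd83/Thbs1 monocytes and 956 to 1134 CPM in comparison monocytes. The MHC class II list was at 10644 to 14239 CPM in the nonclassical cells of days 0, 3 and 6, at 6542 CPM at day 9 and at 963 CPM at day 12. Nonclassical cells were neither matched in depth nor cleared of neutrophil-rich cells. The 18 neutrophil genes summed to 22120 to 182956 CPM in them, against 46273 to 120939 CPM in Cd14/Cd83/Thbs1 monocytes. The difference between Cd14/Cd83/Thbs1 and nonclassical monocytes was not tested.

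Across the days the profile of Cd14/Cd83/Thbs1 monocytes moved little. Genes with at least 50 summed counts were compared with day 0 as a fold change of CPM plus 10, without a test. At day 3, 71 of 2922 genes (2.43%) were past 2-fold in either direction, at day 6 53 of 3229 (1.64%), at day 9 73 of 2681 (2.72%) and at day 12 73 of 2557 (2.85%). In comparison monocytes the percentages were 2.33, 2.19, 2.40 and 2.36. Of 2495 genes compared at all 4 later days, 1 was past 2-fold higher at each of them and 2 were past 2-fold lower.

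The higher gene was *Mmp9*, a gelatinase of neutrophil granules, at 52.4, 261, 127, 175 and 257 CPM. Without the neutrophil-rich cells *Mmp9* was at 14.4, 33.7, 55.6, 66.7 and 32.7 CPM. In CPM plus 10, days 3 and 12 were then less than 2-fold above day 0. In comparison monocytes *Mmp9* was at 83.9, 218, 170, 269 and 305 CPM. The lower genes were *Cxcl2* and *Tipin*, a factor of the replication fork. *Cxcl2* fell from 1265 CPM (95% Poisson interval 1193 to 1341) at day 0 to 500, 477, 538 and 555 CPM, with no later interval above 648 CPM. In comparison monocytes *Cxcl2* was also lower at days 3, 6 and 9 (log2 fold change -2.03, -1.91 and -2.01) but not at day 12 (0.35). Without the neutrophil-rich cells it was at 1305, 483, 497, 670 and 392 CPM, so that day 9 was less than 2-fold below day 0. *Tipin* was at 70.3 CPM at day 0 (54.0 to 89.9) and at 5.77 (1.19 to 16.9), 14.5, 19.4 and 27.4 (11.8 to 54.0) CPM later. When the neutrophil-rich cells were left out, *Tipin* was at 73.4, 4.81, 13.9, 14 and 32.7 CPM.

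*Clec4e* varied little by day, from 642 to 749 CPM. *Il1b* was highest at day 6, at 1062 CPM, and the intervals of days 3, 6 and 9 lay above that of day 0 (664 to 776 CPM). *Id3* was past 2-fold higher at days 3 and 9 only (log2 fold change 1.19 and 1.04). *Fos* and *Dusp1* were highest at day 0 and second highest at day 12 in both populations, with *Dusp1* at 934, 504, 445, 557 and 877 CPM in Cd14/Cd83/Thbs1 monocytes and at 1171, 408, 355, 568 and 1001 CPM in comparison monocytes. *H2-Aa* was at 415, 1013, 599, 372 and 165 CPM against 47.0, 195, 378, 665 and 257 CPM. The 2 populations thus had a different order of days for *H2-Aa* but the same for *Dusp1*. Each day is 1 mouse, so day and animal cannot be told apart.

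**Figure D5:**
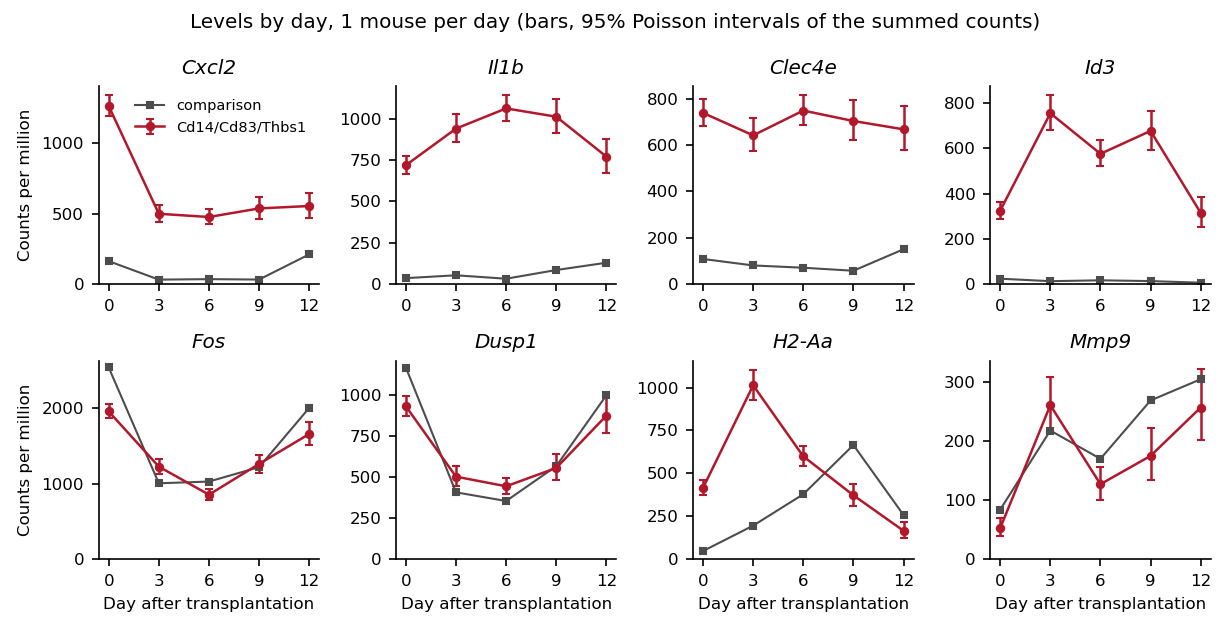
Level in CPM (vertical axes, from 0) of 8 genes by day after transplantation (horizontal axes, 1 mouse per day), in Cd14/Cd83/Thbs1 monocytes (red, with 95% Poisson intervals of the summed counts) and depth-matched comparison monocytes (gray). *Cxcl2* is highest at day 0, at 1265 CPM, *Clec4e* stays between 642 and 749 CPM, and *Fos* and *Dusp1* are highest at day 0 and next highest at day 12 in both populations.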

How the data were processed

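Each of the 5 libraries was used as the raw UMI count per gene and barcode that the authors made with Cell Ranger on mm10, per the submitters' processing notes, and deposited. The matrices list 737280 barcodes and 28692 genes each and so include empty droplets. The annotation release is not given in the sources used here. The cell rule and the 23 gene lists were chosen with earlier results of these data known, and the rule genes were not tested. Genes named were the rule genes, the 15 largest increases and 10 largest decreases among called genes with at least 200 counts and the same direction in 5 libraries, up to 4 genes of each list by counts, genes past 2-fold at all later days, and the most and least abundant marker of each other cell type. Other genes with a call are marked in the text as chosen after their values were seen, except *Ccr2*, used as a monocyte marker, and *Nfkb1*, the exception of its list.

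Comparison monocytes were matched 1 to 1 in UMIs within each library. Sums were tested with edgeR 4.0.16 in R 4.3.3 (TMM, filterByExpr, library as block). DESeq2 1.42.0 was an alternative. The model was tested on simulated data first. Marker backgrounds came from T cells with at least 2 UMIs of CD3 genes and from droplets with at most 100 UMIs. Scrublet in scanpy 1.11.5 called 155, 1, 3, 144 and 3 doublets (2.48, 0.0205, 0.0497, 2.07 and 0.0539% of cells), so it did not work in 3 libraries, and 2 of its calls were Cd14/Cd83/Thbs1 monocytes, which were kept. Depth of 5087 to 7022 UMIs per cell leaves rare transcripts undetected in single cells. In the lists, 2 genes were not analysed here. Promoters came from a RefSeq table. Of 86 genes looked up for their sequences, 71 were matched. Genes on chromosome 18, among them *Cd14*, *Csf1r* and *Crem*, were left out of that lookup.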

Additional observations from a re-analysis of the deposited data

How the results depend on the processing

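With 1 mouse per day, differences between days cannot be told from differences between animals, and free RNA sets a floor under every share. The day 0 share stayed above the highest later share under all 14 alternatives, at 1.47 to 1.90 times it. The 25 genes tested by name kept their direction and call in every alternative in which they were tested, and thinning left 11 of them. They were chosen as the largest changes with the same direction in 5 libraries, which favors this. Of all 1023 genes called, 401 were also called by the DESeq2 Wald test. After thinning to 2000 UMIs, 475 of the 1023 were tested and 276 called. In the comparison with matched cells, 576 genes were higher and 447 lower. All comparison cells without matching gave 961 higher and 598 lower among 7171 tested genes, against 4522 in the matched comparison, thinning to 2000 UMIs gave 189 higher and 115 lower among 1555 tested genes, the DESeq2 Wald test gave 304 and 97, and the fit without the library block, which pairs both populations of a mouse, gave 457 higher and 282 lower. The count of higher genes was 451 to 576 and that of lower genes 280 to 367 when 1 library was left out. The lower counts were 295 without day 0, 287 without day 3 and 280 without day 6. Leaving out cells with at least 5 UMIs of *Ngp*, *Camp* and *Ltf*, as planned, was not run because all 414 cells had them. A limit on neutrophil transcripts, chosen after seeing the data, gave 581 and 457. The numbers of genes past the fold at days 3, 6, 9 and 12 were 387, 343, 409 and 368 for 1.5-fold, 141, 108, 177 and 201 at 20 summed counts, 20, 12, 13 and 20 at 200 summed counts, 26, 21, 28 and 34 after thinning, and 117, 103, 114 and 118 with a pseudocount of 1 CPM. The cause of these shifts was not tested, apart from the tested genes and counts that the thresholds themselves set.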
